A study of Mus musculus with 6 samples.

Results

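Cd3e, Cd247, Cd4, Camk4 and Ltb are 5 mouse genes of T lymphocytes: 2 chains of the CD3 complex that carries the T cell receptor, the coreceptor of helper T cells, a calcium-dependent kinase and the membrane-bound lymphotoxin chain. They were looked up by symbol in a table of 1722 genes that differed between FOXP1-overexpressing and wild-type cells, and all 5 of 5 were found. Because the table holds only genes past an authors' q-value of 0.05 and a fold of 2 in either direction, these genes were chosen by the overexpression contrast itself, through its fold and q-value. Their differences between the groups are therefore given as a description, with no test.

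The cells were U14, a mouse cervical carcinoma line. The 3 FOXP1 overexpression libraries carry the genotype OEFOXP1 in the labels, FOXP1 being a forkhead transcription factor, and the 3 wild-type libraries are labelled WT. The sources used here give neither the vector and its promoter nor the number of clones or a control vector. They also leave unsaid whether replicate libraries stem from separate cultures, so the spread between them may be technical. Overexpression libraries are called 2, 3 and 4 after the numbers in the table, where 4 has no counterpart among the sample titles, and wild-type libraries 1, 2 and 3. Foxp1 is not among the listed genes and its level was not analysed here, so the group labels were not checked against it.

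The T cell receptor binds a peptide held by an MHC molecule, and it signals through the cytoplasmic tails of the CD3 chains and of the zeta chain, which the kinases Lck and Zap70 phosphorylate and read. CD4 binds MHC class II molecules and brings Lck to the receptor. The calcium rise that follows activates calcineurin and, through calmodulin, the kinase CaMKIV, and activated lymphocytes display lymphotoxin on their surface. The chains of the T cell receptor and CD4 are not part of the usual programme of an epithelial tumour cell.

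All 5 genes were present in wild-type U14 libraries and stood several times higher in the FOXP1 overexpression libraries. The ratio of the group means of FPKM, fragments per kilobase of gene model and per 1000000 library fragments, ran between 3.51 for Camk4 and 4.23 for Cd4. For each of the 5, every overexpression library lay above every wild-type library. Among all genes listed as higher the groups were separate in this way in 92.3%, and of the 15689 genes tested by the authors 11.0% were listed, 9.59% as higher and 1.38% as lower, so these counts follow from how the genes were chosen. In bulk RNA, more cells of a type and more RNA per cell cannot be told apart.

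Library totals derived from the values were 16824351 to 20410060 fragments in overexpression libraries and 17994311 to 18668395 in wild-type libraries. The listed genes took 11.7% to 12.9% of the fragments in overexpression and 5.47% to 6.41% in wild type. No library was a copy of another of its group: over the listed genes, chi-square divided by its degrees of freedom was 76.8 to 163.9 between overexpression libraries and 14.7 to 26.8 between wild-type libraries.

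The start regions of Cd3e, Cd247 and Ltb were searched for letters of 2 families of factors, the forkhead proteins, to which FOXP1 itself belongs, and the ETS factors, which are active in lymphocytes. The sequences are RefSeq's for GRCm38.p6, 250 bases before to 50 after an annotated start, and they are printed in the direction of the gene. For Cd4 and Camk4 no sequence is shown. Capitals mark matches on either strand to letters of these families. The forkhead core searched was GTAAACA. The letters searched for the ETS family, called ETS-type, were CAGGAAG, read in reverse complement where the match lies on the opposite strand of the window.
Cd3e, chr9:45009562-45009861, minus strand: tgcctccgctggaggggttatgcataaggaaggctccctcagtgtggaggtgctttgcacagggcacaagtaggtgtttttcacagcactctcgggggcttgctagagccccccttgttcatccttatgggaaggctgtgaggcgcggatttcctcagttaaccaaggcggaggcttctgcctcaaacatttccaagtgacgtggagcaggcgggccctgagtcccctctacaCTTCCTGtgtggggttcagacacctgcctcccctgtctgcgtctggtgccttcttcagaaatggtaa
Cd247, chr1:165788431-165788730, plus strand: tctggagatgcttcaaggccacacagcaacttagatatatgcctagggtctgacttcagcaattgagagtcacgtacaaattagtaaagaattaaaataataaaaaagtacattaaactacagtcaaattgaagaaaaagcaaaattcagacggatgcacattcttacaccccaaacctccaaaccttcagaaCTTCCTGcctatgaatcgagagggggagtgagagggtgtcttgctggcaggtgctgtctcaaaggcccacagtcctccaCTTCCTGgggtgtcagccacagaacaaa
Ltb, chr17:35194257-35194556, plus strand: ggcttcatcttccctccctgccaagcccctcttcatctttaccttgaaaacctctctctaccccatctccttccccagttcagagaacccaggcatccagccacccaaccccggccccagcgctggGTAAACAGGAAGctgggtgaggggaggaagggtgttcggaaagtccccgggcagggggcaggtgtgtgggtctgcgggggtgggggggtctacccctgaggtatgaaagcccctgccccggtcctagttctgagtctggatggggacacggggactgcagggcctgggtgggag
The ETS-type letters begin 17 bases before the start in Cd3e, 57 before and at base 23 after it in Cd247, and 119 before it in Ltb. The forkhead core was found in Ltb alone of the 3 windows, 124 bases before the start, where its last letters CA are also the first of the ETS-type match. Among all 32851 windows of the same length, 3.65% hold the forkhead core and 13.3% the ETS-type letters. The motifs were chosen after the sequences had been seen, and a match is letters in a window, not a measured binding site.

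Cd3e (Entrez 12501) encodes the epsilon chain of CD3, without which the T cell receptor does not reach the surface. It read 19.9, 17.6 and 25.8 FPKM in overexpression libraries 2, 3 and 4, against 3.88, 6.98 and 5.08 FPKM in wild-type libraries 1, 2 and 3. These values rest on 491, 526 and 670 fragments in overexpression and on 106, 191 and 134 in wild type. The groups were well apart, the lowest overexpression library being 2.52 times the highest wild-type library. The mean was 21.1 ± 4.22 FPKM in overexpression and 5.32 ± 1.57 FPKM in wild type (SD, n = 3 each), a log2 ratio of 1.99. The authors' deposited table gives Cd3e a log2 fold of 1.92 and a q-value of 4.40e-11.

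Cd247 (Entrez 12503) encodes the zeta chain, the main signalling tail of the receptor, which natural killer cells also use. It read 5.42, 5.56 and 5.56 FPKM in overexpression libraries 2, 3 and 4, against 0.938, 1.77 and 1.33 FPKM in wild-type libraries 1, 2 and 3. The overexpression libraries were almost identical, with a mean of 5.51 ± 0.0846 FPKM, whereas wild type had a mean of 1.35 ± 0.415 FPKM (SD, n = 3 each). Only 0.797% of the genes listed as higher had as small a spread of log2 values in overexpression, while in wild type 74.0% had a spread no larger than that of Cd247. The difference between the overexpression libraries was smaller than the counting error, which was 3.56% to 3.97% of each value. In the RefSeq table Cd247 overlaps Pou2f1 and 2 further genes, Gm23402 and Gm32999, and the sources used here do not say whether counting used strand.

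Cd4 (Entrez 12504) encodes the coreceptor of helper and regulatory T cells, which in mice some dendritic cells carry too. It read 24.2, 27.3 and 18.2 FPKM in overexpression libraries 2, 3 and 4, against 3.86, 6.17 and 6.45 FPKM in wild-type libraries 1, 2 and 3. Overexpression library 4, the highest for Cd3e, was the lowest for Cd4. The mean was 23.2 ± 4.63 FPKM in overexpression and 5.50 ± 1.42 FPKM in wild type (SD, n = 3 each), and the log2 ratio of 2.08 was the largest of the 5 genes.

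Camk4 (Entrez 12326) encodes CaMKIV, a kinase of T cells and neurons that phosphorylates the transcription factor CREB. It read 0.709, 0.536 and 1.12 FPKM in overexpression libraries 2, 3 and 4, against 0.172, 0.320 and 0.183 FPKM in wild-type libraries 1, 2 and 3. Camk4 was the lowest of the 5 and had the smallest distance between the groups, its lowest overexpression library being 1.68 times the highest wild-type library. The values rest on 156, 143 and 260 fragments in overexpression and on 42, 78 and 43 in wild type. Exact Poisson 95% intervals, which cover counting error only, were 0.452 to 0.631 FPKM for overexpression library 3 and 0.253 to 0.399 FPKM for wild-type library 2, and they did not meet. The mean was 0.789 ± 0.300 FPKM in overexpression and 0.225 ± 0.0822 FPKM in wild type (SD, n = 3 each), and the authors' deposited table gives Camk4 a log2 fold of 1.73 and a q-value of 7.87e-05. The gene model implied by the values is 13074 bases long, against 1465 for Cd3e, which bears on the low FPKM at these fragment counts. Camk4 overlaps 2310026I22Rik in the RefSeq table.

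Ltb (Entrez 16994) encodes lymphotoxin beta, which anchors lymphotoxin alpha in the membrane of lymphocytes and engages the lymphotoxin beta receptor on stromal cells. It read 59.2, 71.5 and 66.4 FPKM in overexpression libraries 2, 3 and 4, against 9.55, 25.9 and 15.8 FPKM in wild-type libraries 1, 2 and 3. Ltb was the most abundant of the 5 per length and the one whose wild-type libraries differed most, by a factor of 2.72 between the highest and the lowest. In overexpression that factor was 1.21. The mean was 65.7 ± 6.18 FPKM in overexpression and 17.1 ± 8.26 FPKM in wild type (SD, n = 3 each), with a log2 ratio of 1.94. Ltb overlaps the microRNA gene Mir6973a in the RefSeq table.

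**Figure D1:**
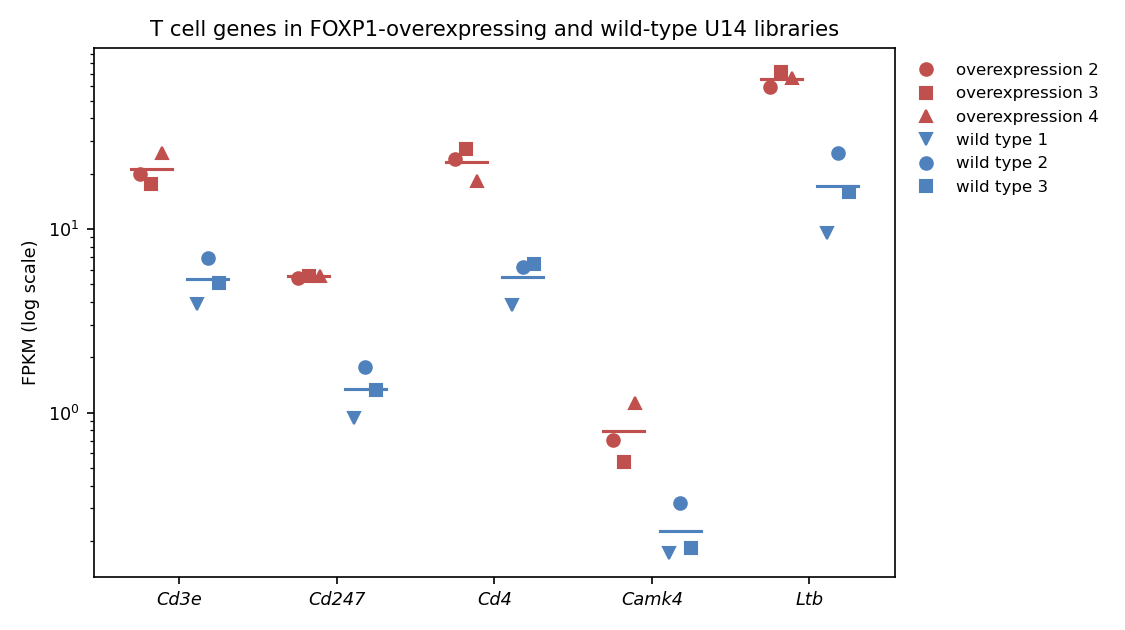
FPKM of the 5 T cell genes on a log axis, with a point for each library, FOXP1 overexpression in red and wild type in blue, and a line at each group mean. All overexpression points lie above the wild-type points of the same gene, from Camk4 at 0.536 to 1.12 FPKM in overexpression up to Ltb at 59.2 to 71.5 FPKM.

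Per length, the order of levels was the same in both groups: Ltb, then Cd4 and Cd3e, then Cd247, then Camk4. Cd4 and Cd3e, the neighbours in that order, overlapped in overexpression, at 18.2 to 27.3 and 17.6 to 25.8 FPKM, and in wild type, at 3.86 to 6.45 and 3.88 to 6.98 FPKM. The other neighbours did not overlap within a group.

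Within the wild-type group the 5 genes shared a low library. Library 1 was the lowest of the 3 for 5 of the 5 genes, as it was for 62.9% of all genes listed as higher. Library 2 was the highest for 4 of the 5, all but Cd4, whereas 31.4% of the genes listed as higher had their highest wild-type value there. Within overexpression the genes parted: Cd3e, Cd247 and Camk4 were highest in library 4, and Cd4 and Ltb in library 3. Of all genes listed as higher, 46.4% were highest in overexpression library 4 and 22.3% in library 3. For Cd247 that order is within counting error.

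In the authors' deposited table the log2 folds of the 5 genes lie between 1.73 for Camk4 and 2.03 for Cd4, with a median of 1.92. The median over all 1505 genes listed as higher is 1.46. Larger log2 folds than that of Cd4 are given to 18.7% of the genes listed as higher, and larger ones than that of Camk4 to 30.6%. The 5 genes thus sit in the upper part of the rises without being among the extremes.

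Other components of the receptor were listed beside them. For this and the following lists, the share over all genes tested by the authors was 9.59% listed as higher and 1.38% as lower. Of the 10 genes of the receptor complex list, 5 were listed as higher, none as lower and 5, the constant region genes Trac, Trbc1, Trbc2 and Trdc and the pre-receptor chain Ptcra, were not listed. Cd3e and Cd247 are 2 of the 5 listed as higher. They were chosen through the contrast, so their place in this count was fixed beforehand. Here and below, a gene not listed may be missing from the annotation, too low to be tested, or short of the fold or q-value. These cases cannot be told apart, so not listed does not mean unchanged. Cd3g, the gamma chain of CD3, read 52.7, 58.8 and 69.1 FPKM in overexpression libraries 2, 3 and 4, against 11.5, 19.3 and 15.9 FPKM in wild-type libraries 1, 2 and 3. Cd3d, the delta chain, read 24.4, 28.5 and 17.6 FPKM in overexpression, against 5.10, 9.78 and 7.46 FPKM in wild type. Trat1, an adaptor associated with the receptor, stood at 0.345 to 0.527 FPKM in overexpression and at 0.0615 to 0.0911 FPKM in wild type. The CD3 chains therefore did not share a common highest overexpression library, as Cd3d peaked in library 3 and Cd3e and Cd3g in library 4.

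Coreceptors and costimulators were listed throughout: 10 of 10 as higher and none as lower, with a median log2 fold of 1.87. Cd4, itself chosen through the contrast, is among the 10. Icos, a costimulator of activated helper T cells, measured 14.1, 7.58 and 9.18 FPKM in overexpression libraries 2, 3 and 4, against 2.06, 2.43 and 2.16 FPKM in wild-type libraries 1, 2 and 3. Cd28, the main costimulator of naive T cells, read 8.86, 4.57 and 5.64 FPKM in overexpression, against 1.22, 1.68 and 1.48 FPKM in wild type. Cd2, an adhesion receptor of T lymphocytes, averaged 47.9 ± 6.48 FPKM in overexpression and 12.3 ± 3.55 FPKM in wild type (SD, n = 3 each). Unlike Cd3e, Icos and Cd28 were highest in overexpression library 2.

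Of 22 genes of proximal signalling, 16 were listed as higher and none as lower, with a median log2 fold of 1.60. Lck, the kinase that CD4 carries, read 29.9, 34.9 and 37.9 FPKM in overexpression libraries 2, 3 and 4, against 9.37, 15.3 and 12.1 FPKM in wild-type libraries 1, 2 and 3. Zap70, the kinase that docks on the zeta chain, read 9.56, 11.8 and 11.5 FPKM in overexpression, against 1.72, 4.41 and 3.37 FPKM in wild type. Lat, the adaptor that Zap70 phosphorylates, is given a log2 fold of 1.59 by the authors' deposited table. Lcp2, Txk, Plcg1, Ptpn7 and Vav1 were among the genes not listed.

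Of 25 genes of calcium signalling, 5 were listed as higher, Camk4 among them, none as lower and 20 not listed, beside 9.59% of all genes tested by the authors listed as higher. Among the genes not listed were the upstream kinases Camkk1 and Camkk2, the 3 calmodulin genes and Creb1. Nfatc1, a transcription factor that calcineurin activates, read 8.41, 7.84 and 10.4 FPKM in overexpression libraries 2, 3 and 4, against 2.51, 3.67 and 3.41 FPKM in wild-type libraries 1, 2 and 3. Its relative Nfatc2 averaged 4.73 ± 1.01 FPKM in overexpression and 2.06 ± 0.541 FPKM in wild type (SD, n = 3 each). Ppp3cc, a catalytic subunit of calcineurin, read 12.5, 5.75 and 8.97 FPKM in overexpression, against 3.23, 3.75 and 3.53 FPKM in wild type. Camk2b, a calmodulin-dependent kinase best known from neurons, was listed although its groups overlapped, at 0.609 to 2.39 FPKM in overexpression and 0.382 to 0.650 FPKM in wild type. The ratio of its group means was 3.002, against 1.97 without overexpression library 2.

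Of 15 genes of lymphotoxin ligands, receptors and signalling, 3 were listed, all as higher, beside 9.59% of all genes tested by the authors. The 3 include Ltb itself, which was chosen through the contrast. Lta, the partner chain of Ltb, read 1.21, 2.32 and 1.63 FPKM in overexpression libraries 2, 3 and 4, against 0.329, 0.428 and 0.376 FPKM in wild-type libraries 1, 2 and 3. Like Ltb, Lta was highest in overexpression library 3, and per length Ltb exceeded it 30.8 to 49.1 times in overexpression and 29.0 to 60.6 times in wild type. Tnfrsf14, a receptor for the lymphotoxin-related ligand LIGHT, averaged 18.2 ± 3.29 FPKM in overexpression and 6.19 ± 1.30 FPKM in wild type (SD, n = 3 each). The receptor gene Ltbr and the NF-kB genes Nfkb2 and Relb were not listed. Of 7 genes that lymphotoxin is known to induce in stroma, 4 were listed as higher. Ccl21a, a chemokine that attracts naive T cells, read 49.4, 2.20 and 13.6 FPKM in overexpression, against 0.803, 0.123 and 0.320 FPKM in wild type, so that overexpression library 2 carried most of its rise. The ratio of its group means was 52.3, against 19.0 without overexpression library 2 and 98.0 without wild-type library 1, and near-identical copies of this gene in the mouse genome may share its reads. Vcam1, an adhesion molecule for lymphocytes, read 84.0, 96.2 and 66.2 FPKM in overexpression, against 22.7, 45.1 and 29.8 FPKM in wild type.

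Of 29 regulators, cytokines and receptors of helper T subsets, 13 were listed as higher and none as lower, with a median log2 fold of 1.76. Il21, the main follicular helper cytokine, read 0.935, 1.59 and 1.56 FPKM in overexpression libraries 2, 3 and 4, against 0.101, 0.169 and 0.192 FPKM in wild-type libraries 1, 2 and 3. Ctla4, an inhibitory receptor of activated and regulatory T cells, read 13.4, 9.72 and 9.96 FPKM in overexpression, against 3.33, 3.17 and 2.87 FPKM in wild type. Stat4, a factor of interferon-producing helper cells, is given a log2 fold of 1.32 by the authors' deposited table. The subset regulators Gata3, Foxp3 and Bcl6 were not listed, nor was Zbtb7b, which directs thymocytes to the CD4 fate. Of 12 genes of naive T cell regulation and homing, 6 were listed as higher, led by the interleukin receptor gene Il7r at 20.6 ± 4.53 FPKM in overexpression and 4.89 ± 1.04 FPKM in wild type (SD, n = 3 each), whereas Tcf7 and Ccr7 were not listed.

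**Figure D2:**
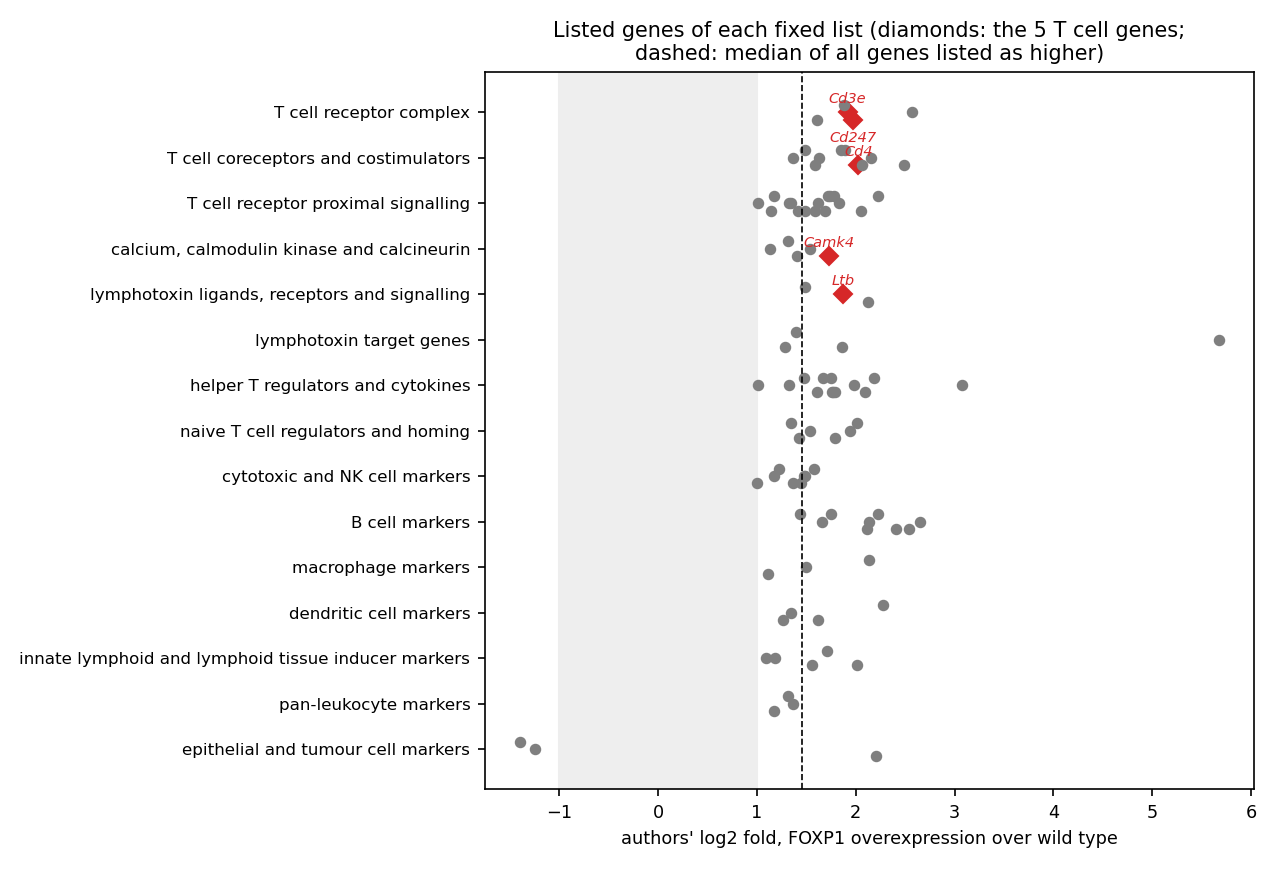
Authors' log2 fold of FOXP1 overexpression over wild type for the listed genes of each of 15 gene lists, with the 5 T cell genes as red diamonds, the other genes in grey, and the grey band marking folds under 2. The dashed line is the median of all genes listed as higher, 1.46, and all 5 diamonds lie to its right, between 1.73 and 2.03.

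Markers of other cells were also among the genes listed as higher, and their part in the result was not tested. Of the marker lists, 9 of 10 B cell genes, 8 of 13 cytotoxic and natural killer genes, 3 of 12 macrophage genes, 4 of 8 dendritic cell genes, 5 of 8 innate lymphoid genes and 3 of 6 pan-leukocyte genes were listed as higher. Over all genes tested by the authors this share was 9.59%. Every listed gene of these immune lists is higher, so higher sums in overexpression follow from the choice of genes. Markers that were not listed are left out of the sums. The summed FPKM of the listed B cell genes was 140.6 to 321 in overexpression and 33.4 to 62.5 in wild type. The corresponding sums were 111 to 168 and 38.1 to 72.9 for cytotoxic genes, 5482 to 7592 and 1052 to 1655 for macrophage genes, and 6.12 to 14.2 and 2.45 to 3.37 for dendritic cell genes. Lyz2 alone made up 5093 to 7344 of the macrophage sum in overexpression and 947 to 1484 in wild type. For innate lymphoid genes the sums were 91.2 to 118 in overexpression and 26.3 to 38.6 in wild type, and for pan-leukocyte genes 934 to 1295 and 365 to 453. None of the listed markers was at 0 in any library, and the macrophage genes Adgre1, Csf1r and Itgam were not listed. Of 10 epithelial genes, 2 were listed as lower and 1 as higher, beside 1.38% and 9.59% of all genes tested by the authors. Krt18, a keratin of simple epithelia, was present in all 6 libraries at 131 to 172 FPKM in overexpression and 322 to 394 FPKM in wild type, and the T cell genes thus stood beside RNA of this epithelial gene in every library. Epcam, an epithelial adhesion molecule of the same list, was higher in overexpression, at 6.01 ± 2.84 FPKM, than in wild type, at 1.25 ± 0.0665 FPKM (SD, n = 3 each).

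Set against Ptprc, the gene of the pan-leukocyte surface protein CD45, the T cell genes were closer between the groups. Ptprc is itself listed as higher, with a ratio of group means of 2.35, so dividing by it lowers every ratio. The size depends on the gene picked, as the pan-leukocyte genes Itgb2 and Cd52 had ratios of 2.60 and 2.68. Cd3e per Ptprc was 0.264, 0.303 and 0.359 in overexpression libraries 2, 3 and 4, against 0.183, 0.230 and 0.142 in wild-type libraries 1, 2 and 3. This ratio of FPKM values was 1.67 times as high in overexpression, compared with 3.97 times for Cd3e alone, and the groups did not overlap. They did not overlap for Cd247 or Cd4 per Ptprc either, where the ratio was 1.75 and 1.85 times as high. Camk4 per Ptprc overlapped, at 0.00923 to 0.0156 in overexpression and 0.00511 to 0.0105 in wild type, and so did Ltb per Ptprc, at 0.786 to 1.23 and 0.442 to 0.855. For how many other listed genes the groups separate per Ptprc was not counted.

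The proportions among the 5 genes overlapped between the groups. Cd247 per Cd3e was 0.216 to 0.316 in overexpression and 0.242 to 0.262 in wild type, Ltb per Cd3e 2.58 to 4.06 and 2.46 to 3.71, and Camk4 per Cd3e 0.0305 to 0.0435 and 0.0360 to 0.0458. Cd4 per Cd3e was 1.21, 1.55 and 0.706 in overexpression libraries 2, 3 and 4, against 0.996, 0.884 and 1.27 in wild-type libraries 1, 2 and 3. The overexpression libraries thus differed more among themselves in this proportion than the means of the groups, 1.16 and 1.05, differed from each other.

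Cd8a, a chain of the coreceptor of cytotoxic T cells, stood at 11.2, 12.9 and 23.1 FPKM in overexpression libraries 2, 3 and 4, against 4.14, 9.00 and 4.15 FPKM in wild-type libraries 1, 2 and 3. Overexpression library 4, the lowest of its group for Cd4, was thus the highest for Cd8a. Its partner chain Cd8b1 read 12.6, 16.7 and 28.2 FPKM in overexpression, against 4.81, 9.40 and 5.10 FPKM in wild type. Cd4 per Cd8a was 2.15, 2.11 and 0.788 in overexpression, against 0.932, 0.686 and 1.55 in wild type. Overexpression library 4 and wild-type libraries 1 and 2 thus held more Cd8a than Cd4 per length, and the other 3 libraries more Cd4.

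**Figure D3:**
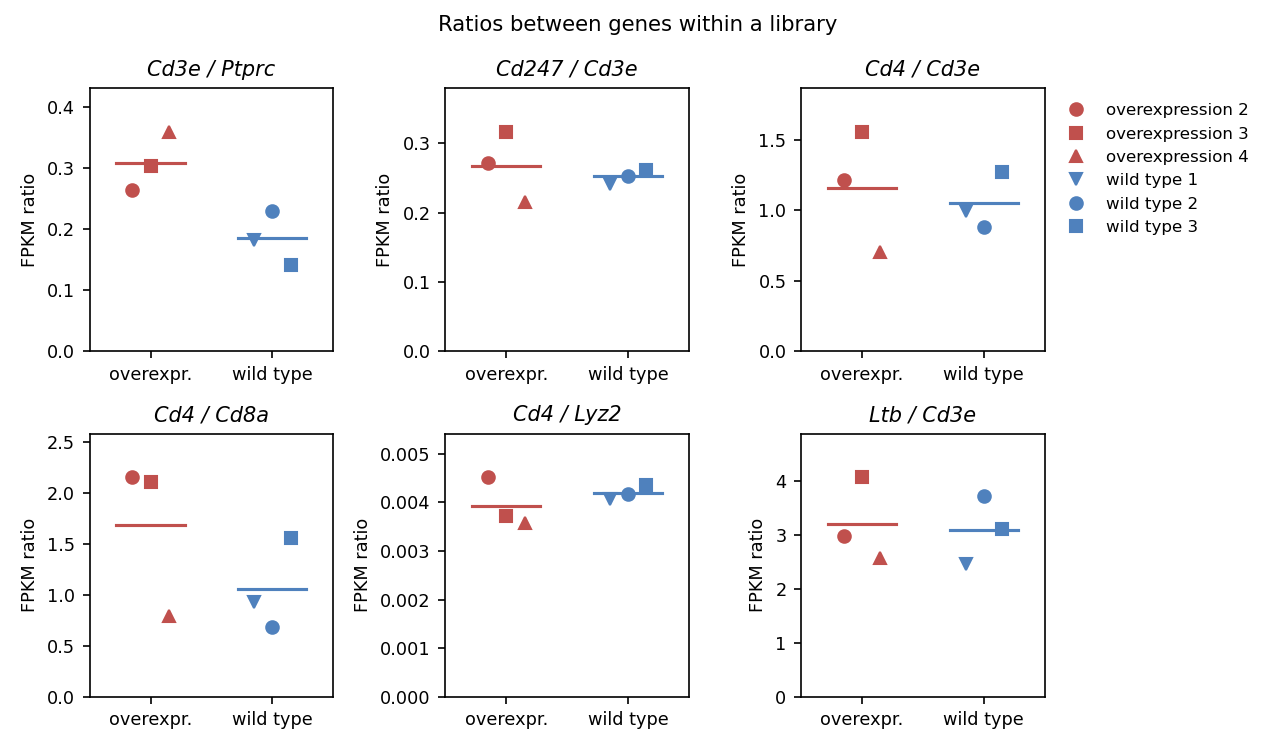
Ratio of the FPKM of gene pairs within each library, with FOXP1 overexpression in red at the left and wild type in blue at the right of each panel, and lines at the group means. Cd3e per Ptprc separates the groups, while in Cd4 per Cd3e and Cd4 per Cd8a overexpression library 4, at 0.706 and 0.788, lies apart from libraries 2 and 3.

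The genes most like each of the 5 were found by the root mean square difference between log2(FPKM + 0.1) profiles over the 6 libraries, each profile centred on its own mean. Profiles span both groups, so a similar difference between the groups brings genes near each other. That difference chose every listed gene, and it was not taken out of the distance. Nearest to Cd3e were Rasal3 (0.0939), a Ras regulator, and Cd3g (0.119), where the median over all other listed genes was 0.530. Nearest to Cd247 were Cd3g (0.110), Sh2d1a (0.111), an adaptor of T and natural killer cells, and Clec7a (0.113), a receptor of myeloid cells for fungal glucans. Nearest to Ltb were Zap70 (0.141), Ccl5 (0.158), a chemokine of T cells, and Cd247 (0.184).

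Nearest to Cd4 were Pdcd1lg2 (0.110), the ligand PD-L2 of myeloid and other antigen-presenting cells, Lyz2 (0.122), a lysozyme of macrophages with the close paralog Lyz1, and Sh2d1a (0.137). Cd4 per Lyz2 was 0.00451, 0.00372 and 0.00357 in overexpression libraries 2, 3 and 4, against 0.00408, 0.00417 and 0.00435 in wild-type libraries 1, 2 and 3, so that the groups overlapped in a proportion that varied little. Lyz2 was picked for its nearness to Cd4, so a steady proportion follows from that choice. Cd3e came only at place 150 by likeness to Cd4, with a difference of 0.369, and Cd247 at place 12 with 0.222.

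Camk4 lay farthest from the others. Its nearest genes were Celsr1 (0.0950), a cadherin of planar cell polarity, Kcnj10 (0.0964), a potassium channel, and Agap2 (0.131), a GTPase regulator, none of them a T cell receptor gene. Cd3e, the nearest of the other 4 genes, stood at place 317 by likeness to Camk4 with a difference of 0.318, and Cd4 at place 1187 with 0.593. At the low level of Camk4 the pseudocount draws its profile flat, which bears on this distance.

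**Figure D4:**
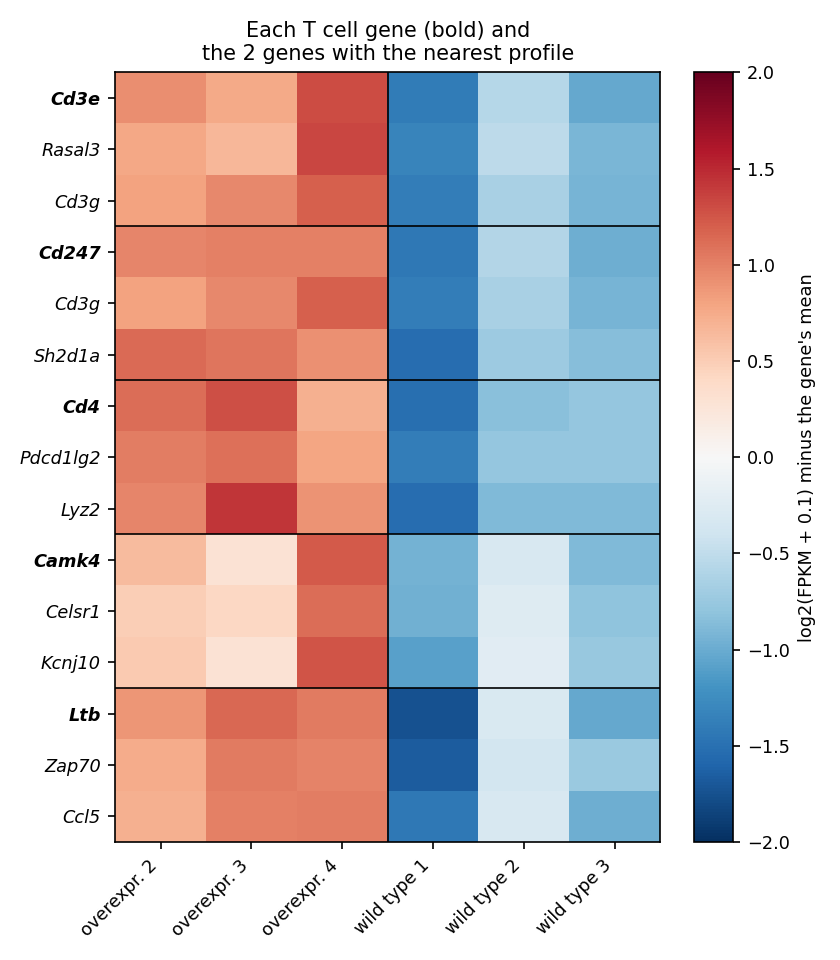
Profiles of the 5 T cell genes (bold) and of the 2 listed genes nearest to each, as log2(FPKM + 0.1) minus the gene's own mean, with the 3 FOXP1 overexpression libraries at the left and the 3 wild-type libraries at the right. Cd3e and Camk4 are darkest red in overexpression library 4 and Cd4 in library 3, and 5 of the 5 genes are darkest blue in wild-type library 1.

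The annotation deposited with the table ties the genes together in part. Cd3e, Cd247, Cd4 and Camk4 carry the term adaptive immune response, which 74 genes listed as higher and none listed as lower carry, with a median log2 fold of 1.53. Cd3e, Cd247 and Cd4 carry the pathway T cell receptor signalling, shared by 27 genes listed as higher and none listed as lower (median 1.60), and that of Th17 differentiation, shared by 33 and none. Cd4 and Ltb share the pathway of cytokine and receptor interaction, with 66 genes listed as higher and 3 as lower. Some other shared terms had lower medians. Immune system process had 1.42, with 123 genes listed as higher and 2 as lower, and Cd3e, Cd247, Cd4 and Camk4 carry it. Cd3e, Cd247 and Cd4 share the pathways of Th1 and Th2 differentiation, at 1.43 (30 and 2), and HIV 1 infection, at 1.36 (23 and 2). Others had higher medians, such as 1.90 for the alpha-beta T cell receptor complex, shared by Cd3e and Cd247. Primary immunodeficiency, shared by Cd3e and Cd4, had 1.79. Not all shared terms are named here. The median was 1.46 for all genes listed as higher. Of all 1722 listed genes, 1505 were higher and 217 lower, and how many of the tested genes carry each term was not counted.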

How the data were processed

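Poly(A)-enriched RNA of 6 libraries was sequenced as paired ends, per the labels' protocols. Per the submitters' processing notes Trimmomatic, HISAT2 and DESeq were used, with no versions, and the build is named as hg19, although the organism and the gene identifiers are mouse. The sources used here name no counter, annotation or strand setting. The authors deposited per-library values whose header says only expression, taken here as FPKM from the numbers themselves. Beside these stand the group means of the normalised signal that the authors deposited, with a fold ratio, its log2 value, and p-values and q-values, all overexpression over wild type, per the file headers.

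Fragment counts were rebuilt from the FPKM and the group signals, with 1 factor per gene and library, and 100% of 10332 values came out whole within 0.01. The same step, tested on simulated data, returned the simulated counts. Library totals take the smallest whole gene lengths that fit. Group means, SDs, log2 ratios of mean FPKM and profile distances (pseudocount 0.1) were computed with Python 3.11.15, pandas 2.3.3 and numpy 2.4.6. No test was run on the contrast, because it had chosen the genes. The number of genes tested by the authors, 15689, is q divided by p for the gene with the smallest p. The column numbered 4 was used as an overexpression library that shares its number with no sample.

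The genes and the 15 lists (191 genes) were chosen with earlier results of these data known. Genes named are the 5, up to 6 listed genes with the smallest q of each list, and the 3 nearest to each of the 5, a few of which are not reported here. Cd8a, the pair ratios and the genes named as not listed were chosen after their values were seen. Alternatives were other log scales and scalings, a filter of 1 FPKM, a q of 0.01, leaving out each library, and same-numbered libraries.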

Additional observations from a re-analysis of the deposited data

How the results depend on the processing

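None of the 60 alternative values of the log2 ratios of the 5 genes changed sign, and 48 moved by less than the spread between libraries. Divided by the median of all listed genes, which removes a shift of 1.22 on the log2 scale, the log2 ratio was 0.77 for Cd3e, 0.83 for Cd247, 0.90 for Cd4, 0.57 for Camk4 and 0.75 for Ltb. Divided by Ptprc, an alternative chosen after seeing the data, it was 0.74, 0.81, 0.88, 0.53 and 0.75 in the same order. The listed genes were chosen by the contrast and 87.4% of them are higher, and Ptprc is listed as higher too. Dividing by either therefore lowers the ratio of any gene. With log2(FPKM + 1) the difference was 1.49 for Cd247 and 0.54 for Camk4, a scale that understates changes of low genes. Leaving out each library in turn gave log2 ratios of 1.81 to 2.24 for Cd3e, 1.83 to 2.28 for Cd247, 1.88 to 2.23 for Cd4, 1.47 to 2.15 for Camk4 and 1.65 to 2.37 for Ltb. The groups of each of the 5 genes are separate with all libraries, and leaving out a library cannot change that. With a pseudocount of 1, 8 of the 15 nearest genes were the same.

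As a replicate block, the mean log2 difference between libraries numbered 2 in both groups and 3 in both groups was 1.65 for Cd3e, 1.84 for Cd247, 2.03 for Cd4, 1.35 for Camk4 and 1.68 for Ltb. The numbers are not shown to pair the samples: the correlation of their deviations from the group means over the listed genes was 0.025 for number 2 and 0.082 for number 3. The filter of 1 FPKM and a q of 0.01 moved no list count by over 1.5 times. Depth limits Camk4 most, where counting error alone is 15.4% of the value in wild-type library 1.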

Other observations

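Overexpression library 4, the lowest of its group for Cd4, was also the lowest for Cxcr5 and the B cell gene Ms4a1. The genes named in these observations were chosen after their values were seen. Cxcr5, the receptor that leads lymphocytes to B cell follicles, read 6.17, 5.48 and 1.92 FPKM in overexpression libraries 2, 3 and 4, against 0.671, 2.31 and 1.16 FPKM in wild-type libraries 1, 2 and 3, so that the groups overlapped. Ms4a1, the B cell surface gene CD20, read 16.6, 12.5 and 4.77 FPKM in overexpression, against 0.666, 3.24 and 1.79 FPKM in wild type. Without wild-type library 2 the ratio of group means was 4.95 for Cxcr5 and 9.22 for Ms4a1, against 3.28 and 5.96 with it. Library 4 was the highest of its group for Ifng, the cytokine of type 1 and cytotoxic T cells, which read 3.93, 4.21 and 8.52 FPKM in overexpression, against 0.487, 2.04 and 1.15 FPKM in wild type. The same held for Tbx21, the factor of that programme, at 5.01, 5.74 and 9.43 FPKM in overexpression, against 1.18, 3.38 and 1.70 FPKM in wild type. These are single libraries and no difference between them was tested.

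Cd40lg, the helper T cell ligand that acts on B cells, was highest of its group in overexpression library 3, as Cd4 was. It read 2.04, 3.37 and 2.98 FPKM in overexpression libraries 2, 3 and 4, against 0.257, 0.429 and 0.756 FPKM in wild-type libraries 1, 2 and 3. Cd40lg per Cd4 was 0.0845, 0.123 and 0.164 in overexpression, against 0.0666, 0.0694 and 0.117 in wild type, with overlapping groups.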
